A study of Mus musculus with 4 samples.

Results

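Cycling chondrocytes were examined in single-cell RNA sequencing of the metaphysis of mouse femur and tibia, from which blood cells had been depleted, in 2 mutant and 2 control libraries. Mutant mice (genotype label Lats2iECKO) carried Lats2 lox/lox alleles and the transgene Cdh5(PAC)-CreERT2, which recombines the floxed gene in endothelial cells after tamoxifen. Controls were Cre-negative littermates which, by the methods of the study, received the same course of tamoxifen as juveniles, although their treatment label reads untreated. All mice were 12 weeks old and of C57/BL6 background. The study used both sexes without stating the sex behind each library, and the labels do not say how many animals entered each library. The Cdh5 promoter is active in endothelium, so the chondrocytes described here were not themselves the intended target of the deletion.

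Members were selected on their UMI counts (unique molecular identifiers, 1 per captured transcript). Barcodes were first kept with at least 1000 UMIs, 800 detected genes, under 15% mitochondrial and under 5% hemoglobin UMIs, which left 24920. A cycling chondrocyte had at least 3 UMIs of Mki67 and Top2a together, at least 50 UMIs of Col2a1 and under 20 of Col10a1 per 10000 UMIs, and no UMI of Cdh5, Ptprc or Hemgn. Of the 24920 barcodes 177 met this rule, 41 and 43 in the mutant libraries and 56 and 37 in the controls. The 3852 barcodes of the same collagen gate with no UMI of Mki67 or Top2a are called non-cycling chondrocytes below. They numbered 936 and 1056 in mutants and 936 and 924 in controls. Because the rule used these 7 genes and the hemoglobin and mitochondrial genes, their levels are given as a description and without a test.

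Longitudinal bone growth rests on the growth plate, a layer of cartilage in which flat chondrocytes divide in columns, then stop dividing, enlarge (hypertrophy) and switch from type II to type X collagen. Indian hedgehog, made by cells that are leaving the cycle, and parathyroid hormone-related protein hold neighbouring chondrocytes in the dividing state. Growth plate cartilage has no vessels of its own and depends on those of the adjacent metaphysis for oxygen and nutrients. A dividing cell copies its DNA in S phase, with the MCM helicase and nucleotide-making enzymes, and separates the copies in mitosis, with mitotic cyclins, kinesins and kinetochore proteins.

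The targeted gene was checked first. In barcodes with at least 3 UMIs of Cdh5, the endothelial cadherin, Lats2 (ENSMUSG00000021959, chromosome 14 of GRCm39 from 57926960 to 57995845) stood at 92.3 and 95.5 counts per 1000000 UMIs (CPM) in the mutant libraries and at 130 and 118 CPM in the controls, and Cre-ERT2 at 54.2 and 47.7 CPM against 1.01 and 0.862. In cycling chondrocytes Lats2 stood at 22.3 and 30.4 CPM in mutants and at 40.7 and 49.8 CPM in controls. Both mutant values lay below both controls, and the log2 fold change of −0.72 (standard error 0.28) did not pass the test across all genes (edgeR, Benjamini-Hochberg adjusted p = 0.201). No UMI of Cre-ERT2 was counted in the 177 members.

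Mki67 (ENSMUSG00000031004, chromosome 7 from 135291513 to 135318299), which codes for a protein of the mitotic chromosome surface, stood at 426, 404, 507 and 501 CPM in mutant 1, mutant 2, control 1 and control 2. Top2a (ENSMUSG00000020914, chromosome 11 from 98883769 to 98915062), a topoisomerase that untangles replicated DNA, stood at 611, 509, 671 and 682 CPM. The median member held 22, 11, 19 and 15 UMIs of both genes together in the same order of libraries. The median level of Col2a1 (ENSMUSG00000022483, chromosome 15 from 97873483 to 97902689), the chain of type II collagen, was 295 and 244 UMIs per 10000 in members of the mutants and 396 and 405 in members of the controls. Droplets without a cell (10 to 100 UMIs) held 68.7 to 77.3 UMIs of Col2a1 per 10000, so free RNA alone lay above the lower limit of the gate. Cycling barcodes that failed the rule had median levels of 1.13 to 1.7, which the rule itself fixes in part. Other cartilage genes that the rule did not use were present throughout. Acan, the core protein of the large cartilage proteoglycan, stood at 2605, 3126, 3273 and 4004 CPM. Sox9, the master regulator of the chondrocyte fate, stood at 832, 797, 621 and 665 CPM. A list of 9 chondrocyte markers, summed without Col2a1, stood at 18543, 18500, 24230 and 27233 CPM in members. In droplets without a cell it stood at 6768 to 7856 CPM. The label of chondrocytes rests on these sums per library, which do not show the type of each member.

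Barcodes lay closer to the limit of Mki67 and Top2a than to those of the collagens. Between 2 and 9 members per library held 3 UMIs of Mki67 and Top2a, and 3 to 12 gated barcodes just missed with 2. Between 1 and 3 members per library had 50 to 75 UMIs of Col2a1 per 10000, and 2 to 4 cycling barcodes that met every other criterion had 25 to 50. At the limit of Col10a1, 2 members, both of mutant 2, had 10 to 20 per 10000, and no cycling barcode had 20 to 40.

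Markers of other cell types were low in members, with 1 exception. The leukocyte list summed to 0 CPM in both mutant libraries and to 3.13 and 7.73 CPM in controls, with S100a8, Elane and Mpo at 0 (Ptprc is at 0 by the rule). The endothelial list summed to 3.86 to 15.5 CPM. Erythroid genes summed to 431 and 523 CPM in members of the mutants and to 139 and 211 CPM in members of the controls, beside 44031 and 45772 against 10504 and 11631 CPM in droplets without a cell. The exception was the osteoblast list, at 824, 14605, 18231 and 2366 CPM in mutant 1, mutant 2, control 1 and control 2. Only 1, 1, 6 and 2 members had 50 or more UMIs of Col1a1 per 10000. Among the members 3 of 41, 9 of 43, 12 of 56 and 4 of 37 were called doublets, and they were kept. Of the non-cycling chondrocytes 30 of 936, 58 of 1056, 55 of 936 and 43 of 924 were called, a lower share in each library. Over all barcodes the share was 4.14% to 5.55%, and the cause of the higher share in members was not tested. Members held a median of 24437, 23836, 22339 and 21821 UMIs, above the 14053 to 14701 of non-cycling chondrocytes. No barcode was shared between libraries among the members, while 7 to 16 barcodes past the filters were shared by each pair of libraries.

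The first question was how many chondrocytes of the gate were cycling in either genotype. In mutant 1, 41 of 1013 gated barcodes were cycling, a share of 4.05% (exact 95% interval 2.92 to 5.45), and in mutant 2, 43 of 1162 or 3.70% (2.69 to 4.95). The share was 5.38% in control 1 (56 of 1041, 4.09 to 6.93) and 3.60% in control 2 (37 of 1027, 2.55 to 4.93). At this limit both mutant libraries lay between the 2 controls, and at a minimum of 2 UMIs of Mki67 and Top2a both (4.74% and 4.39%) lay below them (5.67% and 4.77%, exact permutation p = 0.333, the smallest possible). The mean share was 3.87% ± 0.245 (SD, n = 2) in mutants and 4.49% ± 1.26 (SD, n = 2) in controls, and the difference of −0.617 percentage points was smaller than the spread between the controls (2-sided exact permutation test over the 4 libraries, p = 1). This design allows no p under 0.333. Without control replicate 1 the difference was 0.271, so its sign rests on that library. With 2 libraries a genotype, no difference in the cycling share could be shown.

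The gate itself took up more of the mutant libraries, with 19.6% of all filtered barcodes in both mutants and 15% and 14.9% in the controls. Members made up 0.793% and 0.724% of all barcodes in mutants and 0.809% and 0.537% in controls, and these values overlapped. Across all cell types 384 and 390 barcodes of the mutants and 754 and 671 of the controls had at least 3 UMIs of Mki67 and Top2a. Members were 10.7% and 11% of these in mutants and 7.43% and 5.51% in controls, and most other cycling barcodes carried a UMI of Ptprc or Hemgn. Among hypertrophic chondrocytes, taken as barcodes with at least 50 UMIs of Col10a1 per 10000, 1 of 494, 1 of 501, 1 of 128 and 2 of 129 were cycling, shares of 0.202%, 0.2%, 0.781% and 1.55%. Their median depths were 9928.5 and 9645 UMIs in mutants and 16379.5 and 16883 in controls, and the part of depth in these shares was not tested.

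**Figure D1:**
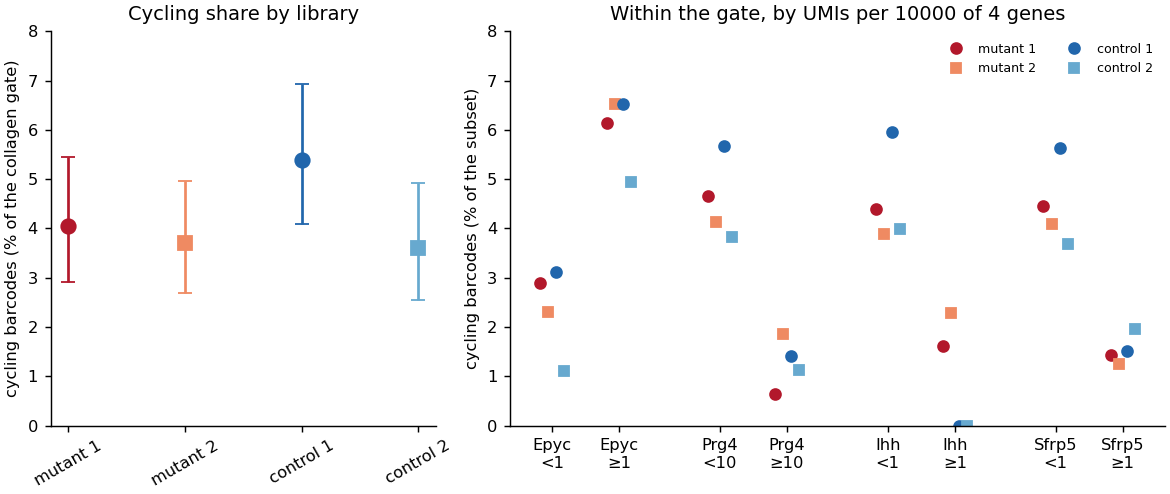
Left, cycling barcodes as a percentage of the collagen gate in each library, with exact 95% binomial intervals that cover counting error only. Right, the same percentage in each library after the gate was divided by the UMIs per 10000 of Epyc, Prg4, Ihh or Sfrp5. The shares of 4.05% and 3.70% in mutants lie between those of the controls, and the share is higher above than below the Epyc limit in all 4 libraries.

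Within the gate, the cycling share was set beside the level of 4 zone genes. Of the barcodes with at least 1 UMI per 10000 of Epyc, which codes for epiphycan, a small proteoglycan of the columnar zone, 6.15% and 6.53% were cycling in mutants and 6.53% and 4.93% in controls. Below that limit the shares were 2.90%, 2.31%, 3.12% and 1.12%, lower in each of the 4 libraries. Barcodes with at least 10 UMIs per 10000 of Prg4, the lubricin gene of the articular surface, were cycling in 0.649%, 1.85%, 1.41% and 1.14%, against 4.66%, 4.12%, 5.67% and 3.83% of the others. Of the barcodes with at least 1 UMI per 10000 of Ihh, the Indian hedgehog ligand, 2 of 124 and 3 of 131 were cycling in mutants and 0 of 101 and 0 of 98 in controls. Of the others 4.39%, 3.88%, 5.96% and 3.98% were cycling. Barcodes with at least 1 UMI per 10000 of Sfrp5, a secreted WNT antagonist, were cycling in 1.44%, 1.26%, 1.52% and 1.96%, against 4.46%, 4.09%, 5.64% and 3.69% of the others, the opposite order to that of Epyc. The subsets also differed in depth. Barcodes with Ihh were deeper than the others in the controls, with medians of 17781 and 18887 against 14021 and 14291 UMIs. In the mutants they were shallower, with 14193.5 and 12885 against 15023 and 14546 UMIs. The subset rich in Sfrp5 was shallower than the others in all 4 libraries, with medians of 11146.5 to 13019 against 14750 to 15559.5 UMIs. The subset rich in Prg4 was shallower than the others, with medians of 9439 to 11804 against 14914 to 15897 UMIs. The subset rich in Epyc was sequenced more deeply, with median counts of 15713 to 18837 UMIs against 11032 to 12795 below the limit, and the part of depth in these shares was not tested. Epyc-rich barcodes were 35.3% and 33.0% of the gate in mutants and 66.2% and 65.1% in controls, with no overlap between the genotypes. Among the members themselves 53.7% and 58.1% in mutants and 80.4% and 89.2% in controls reached the limit of Epyc.

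Genes of the cell cycle were far higher in members than in non-cycling chondrocytes, as the rule demands. The log2 ratio of CPM (1 CPM added) was at least 1 in all 4 libraries for 515 of 8666 genes with a mean of at least 10 CPM (5.94%) and at most −1 in all 4 for 40 (0.462%). These counts follow from the selection on Mki67 and Top2a, and nothing is read from them. Of the list of S phase genes 35 of 40 were higher by this criterion, with a median log2 ratio of 2.95, and of the G2/M list 49 of 51, with a median of 5.19. Over all 8666 genes the median log2 ratio was 0.02. Of 25 cyclins, CDKs, inhibitors and E2F or DREAM genes 14 were higher.

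Within the list of 43 S phase genes the largest ratio belonged to Rrm2, a subunit of ribonucleotide reductase that makes deoxynucleotides, at 246 and 247 CPM in mutant and 263 and 245 CPM in control members. In non-cycling chondrocytes of the same libraries it stood at 1.5, 2.37, 2.32 and 1.78 CPM. E2f8, a repressor of late S phase, stood at 34.0, 39.4, 48.5 and 52.8 CPM in members and at 0 to 0.495 CPM in non-cycling cells. Pcna, the sliding clamp of DNA polymerase, had a lower ratio, with 184, 209, 215 and 173 CPM in members and 42.8 to 47.7 CPM in non-cycling cells. The replication histone gene H2ac24 (ENSMUSG00000094777, chromosome 13 from 22017196 to 22017677) stood at 3711, 2946, 3364 and 4073 CPM in members and at 3.94 to 10.4 CPM in non-cycling cells, and reads of such near-identical histone genes may have been split between copies.

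In G2/M the kinetochore gene Cenpf led, at 423, 407, 453 and 478 CPM in members against 0.804 to 2.61 CPM. Birc5 (survivin, of the chromosomal passenger complex) stood at 355, 268, 330 and 358 CPM against 0.811 to 1.59, and Ube2c, which charges the anaphase-promoting complex with ubiquitin, at 430, 246, 355 and 416 CPM against 1.11 to 2.41. Hmmr, a spindle protein, stood at 146, 123, 151 and 192 CPM against 0.247 to 0.369. For Cenpf and Hmmr, but not for Birc5 and Ube2c, both mutants were below both controls, and none of the 4 genes passed the test between genotypes (log2 fold changes of −0.28 to −0.08, edgeR, Benjamini-Hochberg adjusted p = 0.443 to 0.836). The mitotic kinase Cdk1 stood at 447, 319, 376 and 355 CPM and its partners Ccna2, Ccnb1 and Ccnb2 at 146 to 173, 105 to 146 and 196 to 283 CPM.

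Many G2/M genes carry in their promoters a cell cycle homology region (CHR, the letters TTTGAA) and CCAAT boxes, through which the DREAM complex and NF-Y act. The 200 bases before the canonical start of 21770 protein-coding genes (GENCODE M39, GRCm39) were searched on both strands. A CHR stood in 28.8% of 52 G2/M promoters, 6.98% of 43 S phase promoters and 11.9% of all, and CCAAT in 59.6%, 51.2% and 32.3%. Both motifs together were found in 25% of G2/M promoters, 4.65% of S phase promoters and 4.03% of all. An E2F word (TTTGGCGC or TTTCCCGC) was found in 11.6% of S phase promoters, in 0 of 52 G2/M promoters and in 1.38% of all. Only these 2 E2F words were searched, so the 0 does not mean that G2/M promoters lack E2F sites. These matches are a description of letters and not of binding. Shown are 3 promoters of the G2/M list, 1 with both motifs and 2 with several CCAAT boxes and no CHR, each on the strand of its gene and with CHR and CCAAT letters (either strand) in capitals.
Cdk1 (chr10:69188769-69188968, minus strand): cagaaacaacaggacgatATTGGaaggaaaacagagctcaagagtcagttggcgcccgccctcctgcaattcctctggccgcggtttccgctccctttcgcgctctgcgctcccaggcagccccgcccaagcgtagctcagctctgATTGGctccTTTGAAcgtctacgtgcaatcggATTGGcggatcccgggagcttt
Hmmr (chr11:40624281-40624480, minus strand): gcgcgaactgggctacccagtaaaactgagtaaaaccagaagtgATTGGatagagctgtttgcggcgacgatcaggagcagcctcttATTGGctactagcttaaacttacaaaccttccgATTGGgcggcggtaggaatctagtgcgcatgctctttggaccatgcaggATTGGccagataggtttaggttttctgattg
Ube2c (chr2:164611618-164611817, plus strand): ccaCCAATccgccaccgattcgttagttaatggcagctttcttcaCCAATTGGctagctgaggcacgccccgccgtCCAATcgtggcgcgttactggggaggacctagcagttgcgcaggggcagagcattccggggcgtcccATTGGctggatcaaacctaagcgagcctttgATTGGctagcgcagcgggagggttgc

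**Figure D2:**
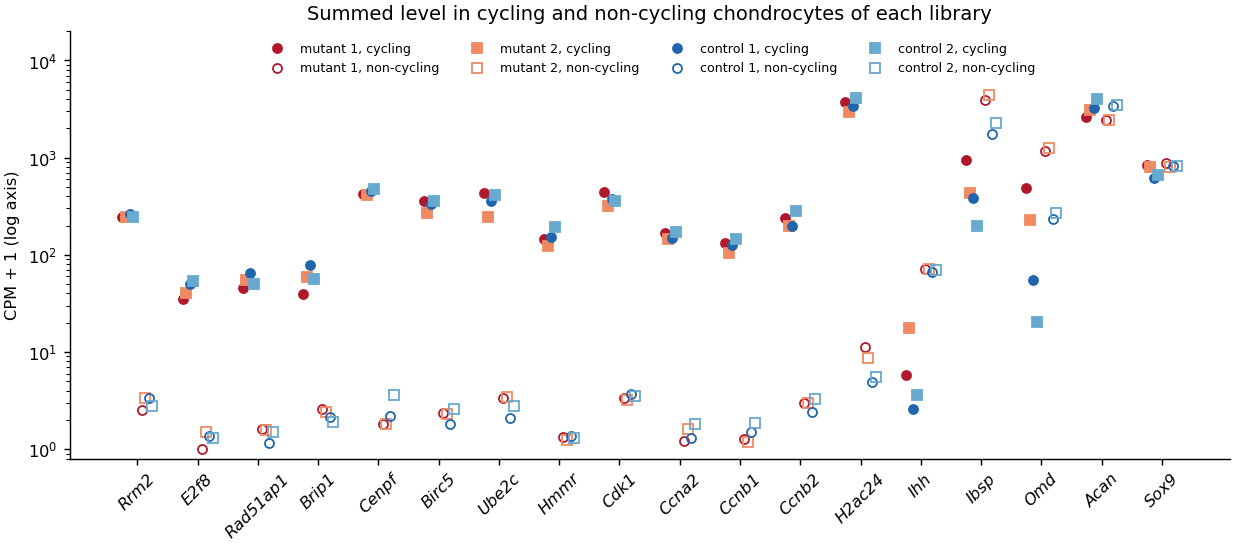
Summed level of 18 genes in cycling (filled) and non-cycling (open) chondrocytes of each library, as CPM + 1 on a log axis. The 13 cell cycle genes stand at 0 to 10.4 CPM in non-cycling cells and at 34.0 CPM or above in cycling cells, Ihh, Ibsp and Omd are lower in cycling cells, and Acan and Sox9 are at similar levels in both.

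Among the 40 genes lower in members, Ihh stood out with 4.85 and 16.6 CPM in mutant and 1.57 and 2.58 CPM in control members, against 65.8 to 70.8 CPM in non-cycling chondrocytes. Ibsp, which codes for the bone sialoprotein of mineralizing matrix, stood at 942, 428, 380 and 197 CPM in members and at 1761 to 4391 CPM in non-cycling cells. Omd, which codes for osteomodulin, a small leucine-rich proteoglycan, stood at 481, 226, 54.0 and 19.3 CPM in members and at 232 to 1249 CPM in non-cycling cells. Of 23 cartilage matrix genes and of 12 columnar zone genes 0 were higher and 0 lower by the same criterion (5.94% and 0.462% of all genes), with median log2 ratios of 0.00 and 0.08. Both classes were gated on Col2a1, and nothing is read from these counts.

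To compare phases at equal depth, each member was thinned to 8000 UMIs, which left out 2, 5, 1 and 2 members with fewer. The median thinned member held 76 and 51 UMIs of the 52 G2/M genes in mutants and 70 and 85 in controls, and 14, 19.5, 27 and 13 UMIs of the 43 S phase genes. Non-cycling chondrocytes thinned alike held medians of 5 to 6 and of 3. G2/M UMIs outnumbered S phase UMIs in 33 of 39 and 29 of 38 members of the mutants and in 43 of 55 and 31 of 35 members of the controls. The genotypes overlapped in each of these measures. Without thinning, G2/M UMIs outnumbered S phase UMIs in 34 of 41, 34 of 43, 42 of 56 and 32 of 37 members. Both lists are read from the same cells that were chosen by Mki67 and Top2a, which rise towards mitosis, so nothing is read from the excess of G2/M.

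**Figure D3:**
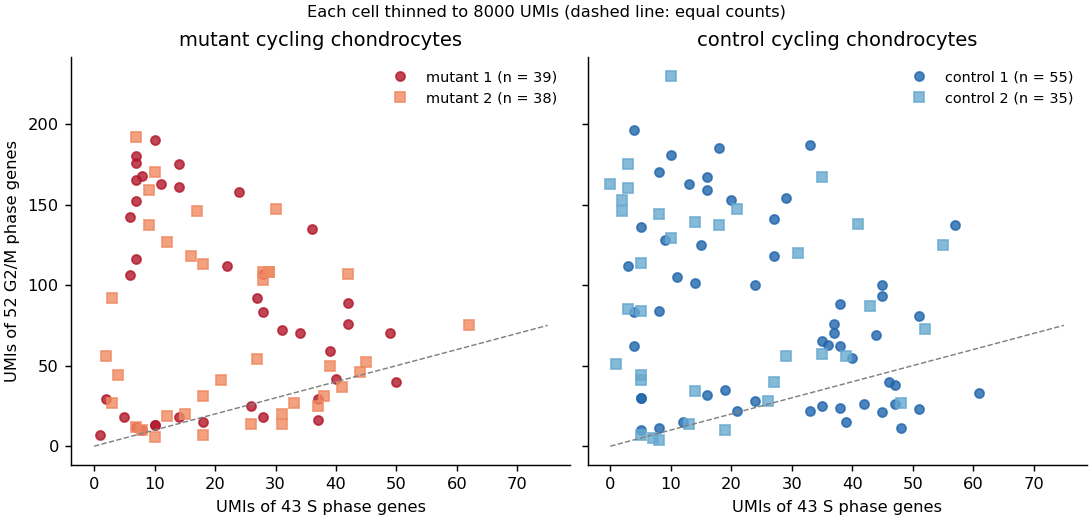
UMIs of 52 G2/M genes (vertical axis) against UMIs of 43 S phase genes (horizontal axis) in each cycling chondrocyte thinned to 8000 UMIs, mutants left and controls right. Most points lie above the dashed line of equal counts in both genotypes, 33 of 39 and 29 of 38 in mutants and 43 of 55 and 31 of 35 in controls.

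The second question was which genes differed between mutant and control members. UMIs were summed over the members of each library and tested with edgeR's quasi-likelihood test, and calls required a Benjamini-Hochberg adjusted p no higher than 0.05 and a change, up or down, of 1 or more on the log2 scale. Of 8697 genes tested 187 rose (2.15%) and 52 fell (0.598%) in mutant members. At the adjusted p alone 275 rose (3.16%) and 97 fell (1.12%), and the median log2 fold change of all tested genes was −0.01. Genes of the rule and of the barcode filters were not removed from the fit. These counts therefore include those of them that passed the gene filter. The count of 239 called genes was 129 with DESeq2, 147 without mutant replicate 2 and 381 without control replicate 2. In non-cycling chondrocytes of the same libraries 168 of 7188 genes rose (2.34%) and 87 fell (1.21%). Of the 187 rises and 52 falls in members, 75 and 21 were also called there and 0 in the opposite direction. Of the 239, 25 were not tested there.

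The gene lists are counted below at the adjusted p alone, so that 3.16% of all tested genes higher and 1.12% lower is the background of each count, and the requirement of 1 on the log2 scale is not applied. No gene of the S phase or G2/M lists passed between genotypes. Of 42 S phase genes 0 passed the adjusted p, with 1 at an unadjusted p under 0.05 and 0 by DESeq2, and the log2 fold changes ran from −0.49 to 0.48 with a median of 0.00. Of 52 G2/M genes 0 passed, with 7 at an unadjusted p under 0.05 (6 lower and 1 higher in mutants) and 0 by DESeq2. Their log2 fold changes ran from −0.85 to 0.34 with a median of −0.11, and 16 of 52 were positive. Without control replicate 1, 3 G2/M genes passed and were lower in mutants. Summed over the list, S phase genes stood at 2767 and 2869 CPM in mutant and 3192 and 2549 CPM in control members, and G2/M genes at 10456 and 9143 against 10256 and 11487 CPM. Of 27 cyclins, kinases, inhibitors and E2F or DREAM genes, 1 rose and 0 fell. Under the alternatives 1 or 2 rose. The count was 2, among others, at a minimum of 2 UMIs of Mki67 and Top2a and without the gene filter. It was also 2 without Col1a1-rich barcodes and with a block for the replicate, as numbered or crossed.

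The gene of this list that rose in the main fit was Cdkn1a (chromosome 17 from 29309936 to 29319701). It codes for p21, an inhibitor of cyclin-dependent kinases and a target of p53. It stood at 257 and 337 CPM in mutant and at 117 and 97.9 CPM in control members, a rise of 1.51 on the log2 scale (SE 0.18, edgeR, Benjamini-Hochberg adjusted p = 0.000955). Both mutant libraries lay above both controls, as for all 187 genes called as higher. In non-cycling cells the log2 fold change was 1.43. Of 7 measured p53 targets 2 rose and 0 fell (3.16% and 1.12% of all genes), Cdkn1a and Btg2, an antiproliferative gene (390, 771, 234 and 268 CPM in mutant 1, mutant 2, control 1 and control 2, log2 fold change 1.27), and Btg2 was no longer called with DESeq2 or without mutant replicate 2, where its log2 fold change was 0.70. Zmat3, another p53 target, stood at 3.88 and 5.18 against 12.5 and 10.3 CPM and did not pass (−1.29, edgeR, Benjamini-Hochberg adjusted p = 0.202).

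Genes of hypoxia and glycolysis were higher in mutant members. Of 17 genes tested 10 rose and 0 fell at the adjusted p, beside 3.16% and 1.12% of all genes, and the median log2 fold change of 0.83 compared with −0.01 over all genes. Bnip3 (chromosome 7 from 138490690 to 138511253), a mitophagy receptor induced by low oxygen, stood at 136 and 196 CPM in mutant and at 46.2 and 61.2 CPM in control members (log2 fold change 1.7, standard error 0.23, edgeR, Benjamini-Hochberg adjusted p = 0.00205). Its groups did not overlap, as for all 187 genes called as higher. Ndrg1, a stress-responsive gene, stood at 80.5 and 113 against 36.8 and 34.8 CPM (1.48, adjusted p = 0.00528). Hk2, the hexokinase of the first step of glycolysis, stood at 85.4 and 102 against 39.1 and 41.2 CPM (1.28, adjusted p = 0.00624). Pgk1, a later glycolytic kinase, stood at 511 and 588 against 253 and 339 CPM (0.96, adjusted p = 0.00703).

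Further along the same list, Vegfa, the ligand that attracts vessels, rose with 72.8 and 116 against 38.4 and 28.3 CPM (log2 fold change 1.52, edgeR, Benjamini-Hochberg adjusted p = 0.0105), and Slc2a1, the glucose carrier GLUT1, with 66.0 and 108 against 27.4 and 41.2 CPM (1.44, adjusted p = 0.0200). Without mutant replicate 2 neither passed, with log2 fold changes of 1.14 and 1.04, and the list held 4 genes that rose. That count was 8 with DESeq2 and 14 without control replicate 2, and no setting made a gene of the list fall. Without barcodes that held an erythroid UMI the log2 fold change of Slc2a1 was 1.18 and it did not pass, and the part of erythroid RNA in its rise was not tested. In non-cycling chondrocytes the log2 fold changes of Bnip3, Ndrg1, Vegfa and Slc2a1 were 1.88, 1.45, 1.30 and 1.27.

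The hypoxia-inducible factors bind the letters ACGTG or GCGTG. These stood on either strand within 200 bases before the start of 11 of 18 genes of the list (61.1%), beside 36.8% of all 21770 promoters, 53.5% of S phase and 51.9% of G2/M promoters. The promoter of Bnip3 is shown as the gene of this list with the largest rise, on the strand of the gene and with ACGTG and GCGTG (either strand) in capitals, of which the 2 ACGTG matches overlap on opposite strands.
Bnip3 (chr7:138511254-138511453, minus strand): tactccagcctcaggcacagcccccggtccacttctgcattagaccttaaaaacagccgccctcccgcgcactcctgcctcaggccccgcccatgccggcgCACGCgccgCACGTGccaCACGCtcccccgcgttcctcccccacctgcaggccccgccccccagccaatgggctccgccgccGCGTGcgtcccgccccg

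Most immediate early genes were higher in mutant members, and the 2 heat shock genes set in the same list were lower. Of the 10 genes of this list 7 rose and 2 fell at the adjusted p (3.16% and 1.12% of all genes), of which 5 and 2 also reached 1 on the log2 scale, with a median log2 fold change of 1.03, and under every alternative 6 or 7 rose and 2 fell. Fos, a subunit of the transcription factor AP-1, stood at 3834 and 4108 CPM in mutant and at 1542 and 1820 CPM in control members (log2 fold change 1.30, standard error 0.11, edgeR, Benjamini-Hochberg adjusted p = 0.000101). Atf3, a stress-induced factor, stood at 317 and 290 against 80.6 and 134 CPM (1.59, adjusted p = 0.0016). Dusp1, a phosphatase that switches off MAP kinases, stood at 385 and 476 against 173 and 169 CPM (1.39, adjusted p = 0.000591). The inducible HSP70 genes moved the other way. Hspa1a stood at 120 and 92.9 against 312 and 385 CPM (−1.64, adjusted p = 0.00055) and Hspa1b at 92.1 and 38.7 against 256 and 253 CPM (−1.89, adjusted p = 0.00328), and these near-identical neighbours may share reads. In non-cycling cells the log2 fold changes of Fos, Atf3, Dusp1 and Hspa1a were 0.52, 0.64, 0.70 and −1.12.

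More genes of the cartilage matrix fell than rose in mutants, by small amounts. In non-cycling chondrocytes 14 of 22 tested fell and 5 rose at the adjusted p, beside 1646 and 1786 of all 7188 genes. In members 9 of 22 tested fell and 1 rose, beside 1.12% and 3.16% of all genes, and the median log2 fold change was −0.32. Those that fell were chains of the fibrils that surround the cell (Col9a1, Col9a2, Col9a3, Col11a1, Col11a2 and Col27a1) and the matrix proteins Epyc, Prelp and Mia. Col11a2, a chain of type XI collagen, stood at 1708 and 1804 against 2841 and 2990 CPM (log2 fold change −0.67, standard error 0.10, edgeR, Benjamini-Hochberg adjusted p = 0.00373). Epyc (chromosome 10 from 97479853 to 97518316) stood at 203 and 228 against 391 and 415 CPM (−0.84, adjusted p = 0.00639), and its groups did not overlap. Cytl1, a secreted factor of cartilage, was the gene that rose (0.87, adjusted p = 0.0185), and it did not pass in 5 of 17 alternatives, among them without mutant replicate 2 (0.67) and with doublets left out (0.57). The count of genes that fell was 4 with DESeq2, 5 without mutant replicate 1 or mutant replicate 2, and 13 without control replicate 1. Col2a1 itself, part of the rule, was in the fit, and no test of it is given here.

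In non-cycling cells 10 of 11 columnar zone genes fell and 1 rose, beside 1646 and 1786 of all 7188 genes. In members 4 of 11 fell (Epyc, Col9a1, Prelp and Mia, all also of the matrix list) and 0 rose, beside 1.12% and 3.16% of all genes. Of the 4, 0 reached 1 on the log2 scale. The count that fell was 2 with DESeq2, 2 without mutant replicate 1 or mutant replicate 2, and 7 without control replicate 1, and Prelp and Mia lost the call in 6 and 7 of 17 alternatives. Neither of 2 resting zone genes passed, and by unadjusted p and by DESeq2 the count was also 0. Without the gene filter 1 of 6 rose, and without control replicate 1 the log2 fold change of Ucma, of the same list, was −0.57. Of 8 pre-hypertrophic and hypertrophic genes 1 rose, Vegfa, and 0 fell. Without control replicate 1, 3 rose and 1 fell, and without control replicate 2, 2 rose and 2 fell. Of 5 articular genes 2 rose (3.16% of all genes). The articular count was 5 without mutant replicate 1, 4 without control replicate 1, and 1 with doublets left out or with the stricter barcode filter. Creb5, a transcription factor of articular chondrocytes, stood at 76.7 and 128 against 30.5 and 24.5 CPM (log2 fold change 1.92, edgeR, Benjamini-Hochberg adjusted p = 0.00385). Thbs4, which codes for a matrix thrombospondin, is used in the paper as a marker of columnar chondrocytes and of fibroblasts. Thbs4 had a log2 fold change of 1.65 (adjusted p = 0.00385), and of 0.97 with doublets left out, where it did not pass. Nor did it pass with the stricter barcode filter (1.15) or without barcodes holding an erythroid UMI (1.18).

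In the hedgehog and PTHrP list, which holds receptors and regulators of growth plate signalling, 1 of 11 genes rose and 1 fell, beside 3.16% and 1.12% of all genes. Ptch1, the hedgehog receptor and a standard target of the pathway, stood at 215 and 252 against 586 and 415 CPM (log2 fold change −1.05, standard error 0.18, edgeR, Benjamini-Hochberg adjusted p = 0.00723). Gli1, another standard target, stood at 14.6 and 15.5 against 14.1 and 34.8 CPM and did not pass (−0.53, adjusted p = 0.580). Boc, a hedgehog co-receptor, rose (1.51, adjusted p = 0.0247) but lost the call in 4 of 17 alternatives, DESeq2 and the fit without mutant replicate 2 (1.40) among them. Pth1r, the receptor for PTHrP, stood at 612 and 495 against 706 and 892 CPM (−0.47, adjusted p = 0.122). Of 12 growth factor receptors and ligands 0 passed, with 4 at an unadjusted p under 0.05 and 0 by DESeq2. Igf1r, the receptor of insulin-like growth factor, stood at 256 and 351 against 197 and 201 CPM (0.67, adjusted p = 0.0523) and passed in 8 of 17 alternatives, among them without mutant replicate 1 (0.91). Of 10 chondrocyte transcription factors Runx2, which drives hypertrophy, fell from 479 and 439 CPM in controls to 250 and 221 CPM in mutants (−0.91, adjusted p = 0.00394), and Sox9 did not pass (0.40, adjusted p = 0.100).

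LATS kinases restrain the co-activators YAP1 and TAZ. The list of YAP1/TAZ targets includes Lats2, the targeted gene itself, whose values are given above. Of 9 YAP1/TAZ targets 2 rose in members and 0 fell (3.16% and 1.12% of all genes), and 0 reached 1 on the log2 scale: Ccn2, a matricellular growth factor (log2 fold change 0.74, edgeR, Benjamini-Hochberg adjusted p = 0.0360), and Crim1 (0.91, adjusted p = 0.0302). The count was 0 with DESeq2, at a Col2a1 minimum of 100 and without barcodes holding an erythroid UMI, 1 without mutant replicate 2, 4 without control replicate 1 and 5 without the gene filter. Ccn2 did not pass without mutant replicate 1 (0.56) or with doublets left out (0.66), and Crim1 not without mutant replicate 2 (0.75). Of 14 genes of the secretory pathway and unfolded protein response 1 fell, the collagen chaperone Serpinh1 (1343 and 1318 against 2205 and 2194 CPM, −0.67, adjusted p = 0.00468). Without the gene filter 3 of the 14 fell.

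**Figure D4:**
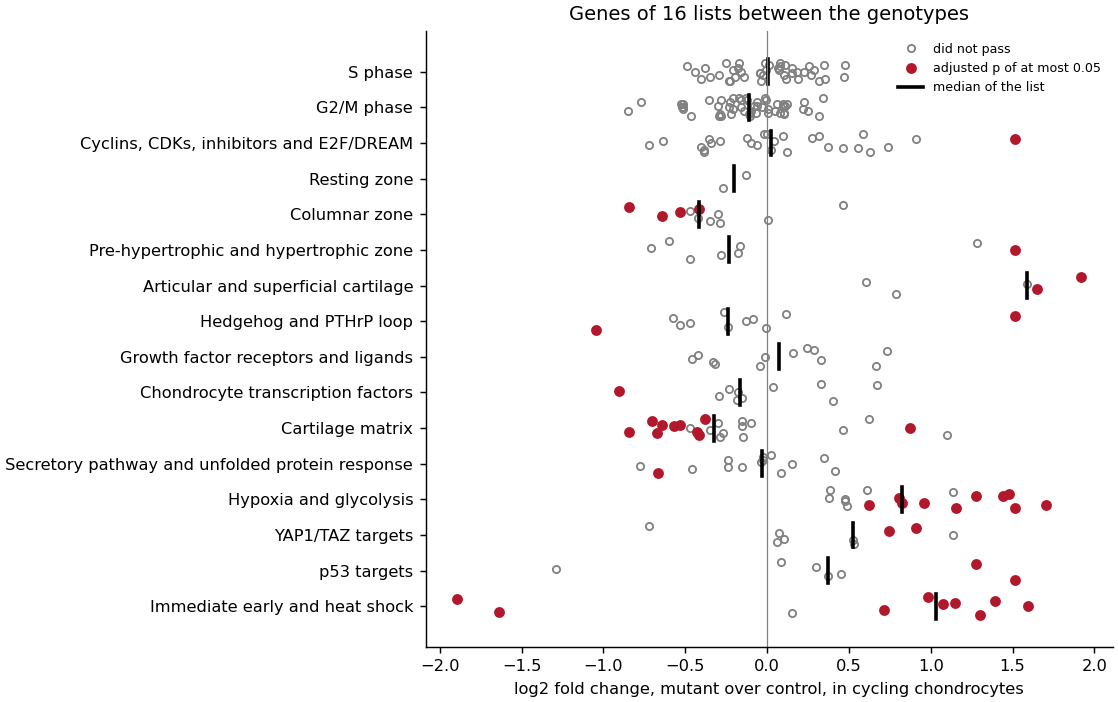
Log2 fold change between mutant and control members for every tested gene of 16 lists, 1 point a gene, with the median of each list and filled points for an adjusted p of at most 0.05. All 17 genes of the hypoxia and glycolysis list lie right of 0, most of the cartilage matrix list lies left of it (median −0.32), and S phase and G2/M genes lie around 0.

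Of the 15 genes with the largest rise in members, 12 were called under all 17 alternatives. Mt1 (chromosome 8 from 94905710 to 94906955), a metallothionein that binds zinc, stood at 243 and 248 CPM in mutant and at 14.1 and 28.3 CPM in control members (log2 fold change 3.68, standard error 0.25, edgeR, Benjamini-Hochberg adjusted p = 2.09e-05). Tnn, which codes for the matrix protein tenascin-N, stood at 147 and 137 against 15.7 and 19.3 CPM (3.10, adjusted p = 3.04e-05). Frzb, a secreted WNT antagonist of articular cartilage, stood at 106 and 99.5 against 13.3 and 6.44 CPM (3.32, adjusted p = 0.000156). Each mutant library lay above both controls for these genes, which the choice of named genes requires. Rcan1, an inhibitor of calcineurin, stood at 122 and 204 against 17.2 and 25.8 CPM (3.03, adjusted p = 0.000478). Rbp4, the carrier of retinol, stood at 120 and 200 against 29.8 and 15.5 CPM (2.79, adjusted p = 0.000658), and Omd at the levels given above (3.22, adjusted p = 0.00103).

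Slpi, a protease inhibitor, stood at 81.5 and 44.5 against 3.13 and 2.58 CPM (log2 fold change 4.44, edgeR, Benjamini-Hochberg adjusted p = 0.000557), and its annotated span overlaps that of Matn4, a matrilin gene. H2-Ab1, a chain of MHC class II, stood at 59.2 and 123 against 10.2 and 10.3 CPM (3.19, adjusted p = 0.0016), and the source of this RNA was not tested. Rps3a3 had the largest log2 fold change, 6.23, and is annotated as a processed pseudogene, so its reads are uncertain. The other 6 were Mgarp, Maff, Dusp5, Ptpre, Pde4c and Gm26802, with log2 fold changes of 2.74 to 3.71. Dusp5 was no longer called without mutant replicate 2 (2.69), and Ptpre (2.80) and Pde4c (2.61) not without mutant replicate 1, and Ptpre also not with DESeq2.

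Of the 15 genes with the largest fall, 5 were called under all 17 alternatives. Hp, which codes for haptoglobin, stood at 2.91 and 8.29 CPM in mutant and at 62.6 and 68.3 CPM in control members (log2 fold change −3.47, standard error 0.38, edgeR, Benjamini-Hochberg adjusted p = 0.000591). Tnni2, a fast troponin, stood at 28.1 and 24.9 against 114 and 92.7 CPM (−1.92, adjusted p = 0.000955). Hspa1b and Gm47283 (−2.57) were also among the 5. Cxcl12, the chemokine of marrow reticular cells, stood at 13.6 and 28.0 against 150 and 243 CPM (−3.16, adjusted p = 0.000478) and did not pass without barcodes holding an erythroid UMI (−2.62). The reticular list, which contains Cxcl12, summed to 25.2 and 38.3 CPM in mutant and 206 and 292 CPM in control members, and to 1588 and 1846 against 4016 and 3754 CPM in droplets without a cell, and its part in the fall was not tested. Hbb-bs, a globin gene limited by the hemoglobin filter, stood at 242 and 305 against 83.8 and 91.9 CPM beside the erythroid sums given above. No test of it is given, because the filter used it. Of the 9 erythroid genes 4 were in the fit and 3 rose at the adjusted p (3.16% of all genes). Nothing is read from this count. Tmprss2, Snord3b3, C130073E24Rik, Gm49980, Pgap4, Ly6e and Siae lost the call under at least 1 alternative.

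The last question was whether the genotype difference was another one in cycling than in non-cycling chondrocytes, tested as an interaction in 1 edgeR fit with the library as a block. The difference passed for 6 of 9406 genes (0.0638%), with 637 at an unadjusted p under 0.05 and 7 called by DESeq2. Of the 6, H2ac24 did not pass the gene filter in non-cycling cells alone and is not counted here as a tested difference, which leaves 5. The interaction was largest for Mt1, with a log2 fold change of 3.68 in members and of 1.79 in non-cycling cells, where it stood at 238 and 237 against 70.2 and 75.4 CPM (interaction 1.85, standard error 0.25, Benjamini-Hochberg adjusted p = 0.0261). Tnfrsf11b (chromosome 15 from 54114015 to 54142075), which codes for osteoprotegerin, the decoy receptor that limits osteoclast formation, stood at 109 and 108 against 218 and 268 CPM in members and at 239 and 254 against 199 and 208 CPM in non-cycling cells (interaction −1.49, standard error 0.16, adjusted p = 0.00621). The interaction of Mt1 did not pass with doublets left out, at a Col2a1 minimum of 100 or without any 1 of the 4 libraries. The log2 fold change of Tnfrsf11b was −1.10 in cycling and 0.36 in non-cycling cells. Without control replicate 1, and likewise without control replicate 2, 0 genes passed, with 496 and 549 at an unadjusted p under 0.05. Without mutant replicate 2 the count was 2, and Tnfrsf11b did not pass (−1.45).

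**Figure D5:**
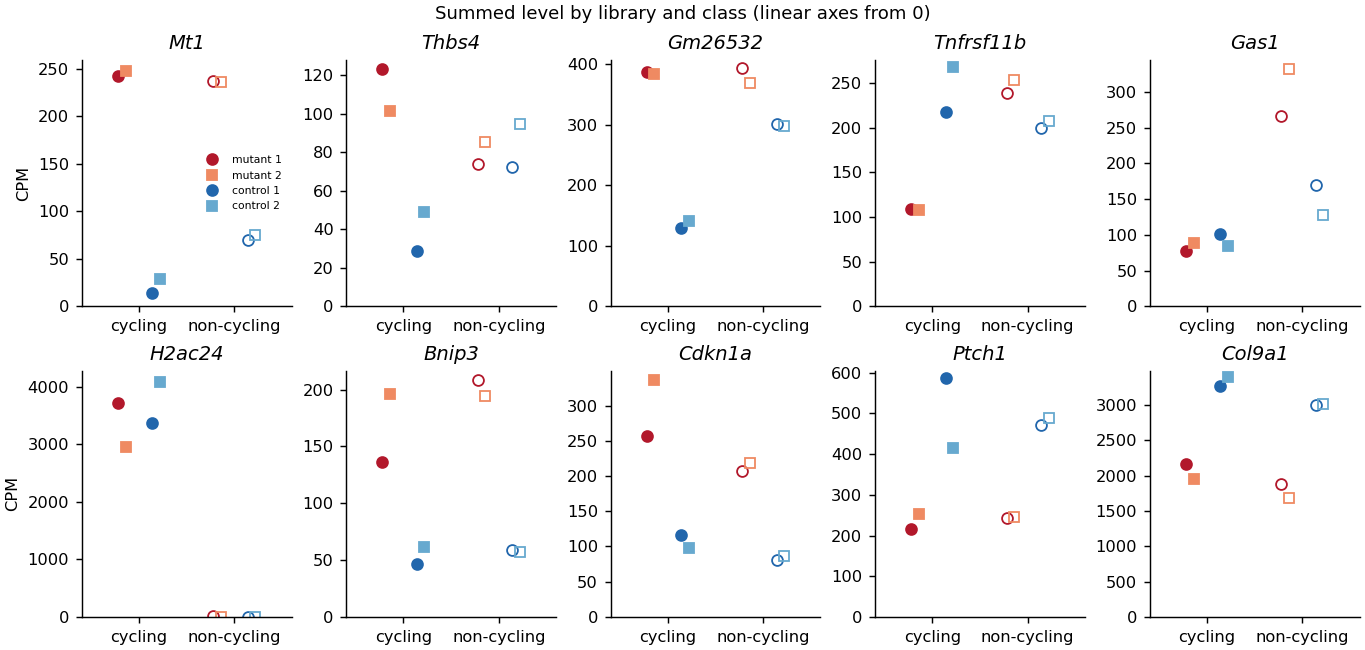
Level of 10 genes in CPM (linear axes from 0) in cycling (filled) and non-cycling (open) chondrocytes, 1 point a library. Mt1, Bnip3 and Cdkn1a lie higher and Ptch1 and Col9a1 lower in mutants in both classes, while Tnfrsf11b lies below controls in cycling cells (109 and 108 against 218 and 268 CPM) and above them in non-cycling cells.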

How the data were processed

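Non-hematopoietic cells of the metaphysis were released with collagenase, depleted of lineage, CD45 and CD117 positive cells and captured with 10x Chromium 3′ chemistry, giving 2 mutant and 2 control libraries of 69636600 to 85899079 UMIs. The authors deposited an expected count per gene and barcode, and the submitters' processing notes name STARsolo 2.7.10a and cutadapt 3.5. Reads shared by several genes were split into fractions there, so sums were rounded to whole counts for tests, and near-identical genes are uncertain. The members and gene lists were chosen with earlier results of these data known. Sums per library were tested with edgeR 4.0.16 in R 4.3.3 (TMM, quasi-likelihood, Benjamini-Hochberg) for genes past edgeR's expression filter with a count in 20% or more of the cells in a genotype. The standard errors given were computed back from the test, as the size of the log2 fold change over the square root of its F statistic. The paper describes the 2 libraries of a genotype as biological replicates. The labels do not say whether the libraries came from separate animals, so p-values measure the spread between these libraries. Single values were compared by exact permutation, and binomial intervals (exact Clopper-Pearson) cover counting error only. Named genes were the 15 largest rises and falls among called genes whose groups did not overlap, up to 4 genes of each list that passed in each direction, by size, and every interaction called. Some genes that meet this rule are not reported here. Pcna, Hk2, Pgk1, Col9a2, Col9a3, Col11a1, Zmat3, Gli1, Pth1r, Sox9 and Hbb-bs fall outside this rule and were chosen after their values were seen. Igf1r also falls outside it and was named by its mean CPM, as a member of a list in which no gene passed. Doublets were called with scanpy 1.11.5 (Scrublet, 0.8% per 1000 barcodes) and kept, and leaving them out was an alternative, as were DESeq2 1.42.0, other scalings, no gene filter, other gates, each library left out and a replicate block. Leaving out Col1a1-rich barcodes, leaving out barcodes with an erythroid UMI and the crossed block were chosen after seeing the data. The scripts were tested on simulated data. Positions and promoters come from GRCm39 with GENCODE M39.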

Additional observations from a re-analysis of the deposited data

Results flagged for a closer look

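The genotype difference was compared between cycling and non-cycling chondrocytes by an interaction test (edgeR, Benjamini-Hochberg adjusted), which 6 genes passed, 5 of them leaving out H2ac24. The interaction is the log2 fold change in cycling cells relative to that in non-cycling cells. It was 1.85 for the metallothionein gene Mt1 (adjusted p = 0.0261) and −1.49 for Tnfrsf11b (adjusted p = 0.00621), whose levels stand in the report. For Thbs4 it was 1.58 (adjusted p = 0.0475), with 123 and 102 against 29.0 and 48.9 CPM in cycling and 73.9 and 85.5 against 72.4 and 94.7 CPM in non-cycling cells. It passed in 6 of 15 alternatives, and was 0.90 with doublets left out. Mt1 did not pass with doublets left out, at a Col2a1 minimum of 100 or without any 1 library. For the histone gene H2ac24 the value was −1.31, with 10.4 and 7.68 against 3.94 and 4.52 CPM in non-cycling cells and overlapping genotypes in cycling cells. H2ac24 entered this test through the cycling cells, where the selection makes it high, and its value rests on the low levels left in cells chosen to lack Mki67 and Top2a, so it is given as a value and not as a tested difference. For Gas1, a hedgehog co-receptor, it was −1.24 (adjusted p = 0.0319), with 77.6 and 88.1 against 102 and 85.0 CPM in cycling and 266 and 332 against 169 and 128 CPM in non-cycling cells. The interaction of Gas1 was −0.66 at a minimum of 2 UMIs of Mki67 and Top2a and −2.59 at a Col2a1 minimum of 100, and it passed in neither, nor with doublets, barcodes with an erythroid UMI or any 1 library left out. For the long non-coding RNA gene Gm26532 it was 1.11 (adjusted p = 0.0261), with 386 and 384 against 129 and 140 CPM in cycling and 393 and 369 against 301 and 297 CPM in non-cycling cells. Gm26532 did not pass at a Col2a1 minimum of 100 or without either mutant library, and Tnfrsf11b not without mutant replicate 2. None of the 6 passed without control replicate 1 or without control replicate 2, where each kept its direction, and all 6 passed with DESeq2.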

How the results depend on the processing

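The difference in the cycling share, −0.617 percentage points, ran from −1.51 to 0.271 with 1 library left out, the latter without control replicate 1, and from −1.01 to −0.391 under the other settings. Of 8697 genes 239 were called between genotypes in members, 129 with DESeq2, 498 without the gene filter, and 147 (without mutant replicate 2) to 381 (without control replicate 2) with 1 library left out. All 129 DESeq2 calls were among the 239. In non-cycling chondrocytes 255 were called, 1376 without the gene filter and 235 to 269 with 1 library left out. The interaction count of 6 was 48 without the gene filter, 3 at a Col2a1 minimum of 100, and 0 to 7 with 1 library left out. The cause of these shifts was not tested, apart from the number of genes, which the filter sets. Replicate numbers did not pair the libraries (correlation of same-numbered deviations −0.113 in members and −0.0185 in non-cycling cells). The replicate block gave 277 calls in members and 256 in non-cycling cells, and the crossed pairing 320 in members. With 37 to 56 members a library, levels of a few CPM rest on few UMIs.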
